A study of Mus musculus with 10 samples.

Results

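Retinas of mice with oxygen-induced retinopathy (OIR) that received the inhibitor ISOX DUAL were compared with retinas that received phosphate-buffered saline (PBS). The comparison used 4 of the 10 arrays of the study, the 2 titled for ISOX DUAL and the 2 titled for PBS, and every transcript cluster that carries 1 gene symbol. It covered 23255 genes, of which 16 are crystallin genes, the structural proteins of the eye lens; these are described apart, at the end. The series set out to find genes that go up in OIR and go back with the inhibitor, so the genes raised in OIR are described as a group as well.

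All 4 retinas came from C57BL/6JJmsSlc mice that breathed 75% oxygen for 5 days from postnatal day 7 and then lived in room air. All 4 also had an injection into the vitreous when the hyperoxia ended, and the samples are labelled day 17. The groups differ by what was injected, PBS or ISOX DUAL, so both carry the disease model and the needle. The labels give no dose, volume or vehicle for ISOX DUAL. Nor do they state whether paired arrays of 1 treatment stem from different mice, from pools or from a shared extract, so each p-value below reflects only how far such arrays lie apart, which may be a technical spread. Uninjected OIR retina and untreated retina of day 17, each with 2 arrays, serve below as reference levels.

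In OIR, high oxygen stops and prunes the growing retinal vessels, and the retina becomes hypoxic on return to air and sends out new vessel sprouts. Müller glia, the support cells that span the retina, respond to such injury by switching on intermediate filament, protease inhibitor and complement genes. Bromodomains are protein modules that read acetylated lysines on histones; ISOX DUAL is known as an inhibitor of the bromodomains of the BET family and of the acetyltransferases CBP and p300, which help to switch on gene transcription.

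The arrays carried retina. Of 10 defining retinal markers, 7 had a cluster of their own, among them the rod genes Gnat1 and Sag and the Müller glia gene Rlbp1, and their levels lay between 8.75 and 13.08 log2 on the 4 arrays. The negative control probes of these arrays had medians of 5.99 to 6.11 log2, and 8.00% to 9.12% of the clusters lay above a cutoff that only the brightest 5% of these probes pass. Where the lower of the groups was under this median on both of its arrays, the fold is left out. In bulk tissue, fewer cells of a type and less RNA per cell cannot be told apart.

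On 2 of the 4 arrays, small sets of genes stood apart. The second ISOX DUAL array had 12 genes at least 1 log2 above all 9 other arrays of the study, and 10 of them were crystallins; the other two were Mip, the main membrane channel of lens fibres, and Rsad2, an interferon-induced antiviral gene. The first PBS array had 26 such genes, of which 10 were Y-chromosome clusters and 11 were small nucleolar RNAs. The first ISOX DUAL array and the second PBS array had 0. For results that moved with an array, values without it are given beside them or as a range.

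Apart from the crystallins, no gene passed the test between retinas injected with ISOX DUAL and with PBS, and nearly all differences were small. Of 23239 such genes, 0 had an adjusted p under 0.05 in limma's test over all 10 arrays (0% of all 23255 genes tested), and every one of them had an adjusted p of 1. At an unadjusted p under 0.05 there were 227, 83 with higher and 144 with lower values after ISOX DUAL, which is 0.4% (93 genes, crystallins included) and 0.619% of all genes tested. The differences of 23059 genes, or 99.2%, lay within 0.5 log2 of 0. Their 5th to 95th percentiles were -0.17 and 0.16 log2, and the median was 0.01 log2.

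Across genes, the standard error (SE) of a difference had a median of 0.134 log2. Its 95% interval typically reached 0.311 log2 to either side. Few arrays limited precision, and the SE also draws on groups outside the comparison, which were more uneven. Between the arrays of a group, differences had a standard deviation of 0.156 log2 for ISOX DUAL and 0.223 log2 for PBS. It was 0.325 log2 in uninjected OIR, and 0.341 and 0.395 log2 in untreated retina of day 17 and day 7. Without any difference, 5% of genes would be expected at an unadjusted p under 0.05 in limma's test. The shares found, 0.4% higher and 0.619% lower, mark a cautious test. An exact permutation test of 2 arrays against 2 cannot give a two-sided p below 0.333, so no single gene was tested that way. Both ISOX DUAL arrays lay above both PBS arrays for 3851 genes (16.6%) and below them for 2666 (11.5%), and positive differences made up 57% of all genes. The counts for gene groups below are to be read against these shares. Their counts at an unadjusted p under 0.05 are to be read against 0.4% higher and 0.619% lower over all genes. Only 3 genes other than crystallins had higher values by at least 1 log2, namely Serpina3n, Serpine3 and Fgf2os, and 14 had lower values by that much.

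**Figure D1:**
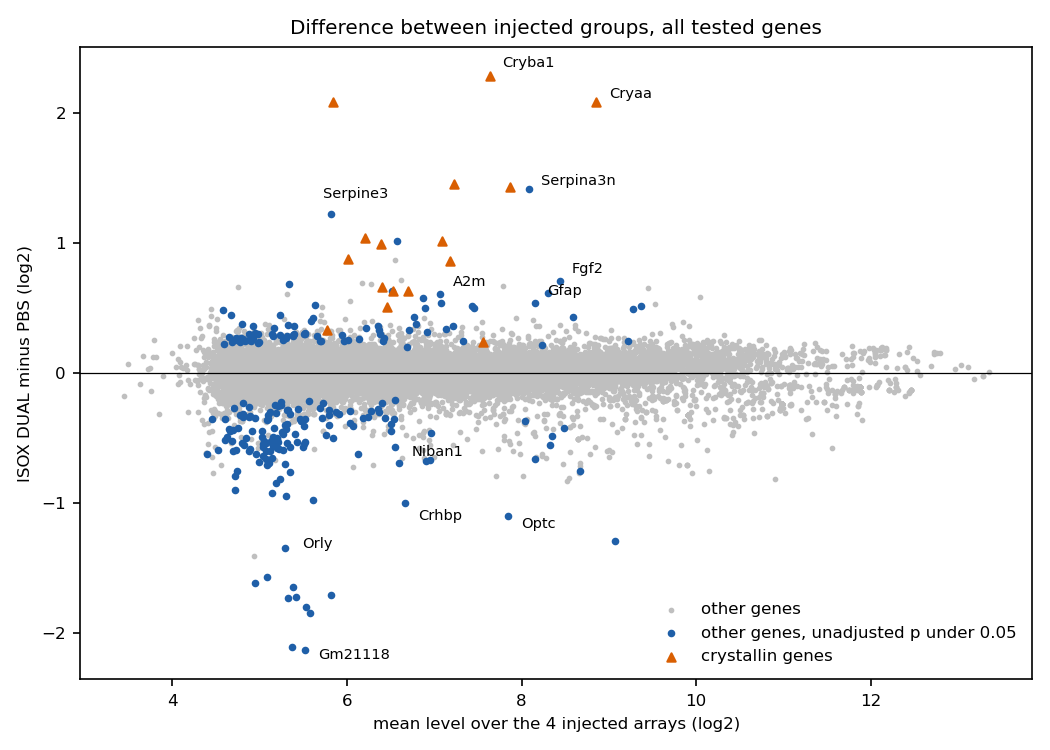
Difference between the injected groups (ISOX DUAL minus PBS, log2) against the mean level over the 4 injected arrays (log2), with 1 point for each of 23255 genes. Crystallin genes (triangles) hold most of the upper edge, the 227 other genes at an unadjusted p under 0.05 are drawn in blue, and the column of low points near a level of 5 holds Y-chromosome clusters such as Gm21118.

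For Brd2, Crebbp and Ep300, genes of the inhibitor's targets, differences between the groups were smaller than their errors, which draw on all 10 arrays. Brd2, a BET bromodomain reader, measured 8.41 and 8.35 log2 with ISOX DUAL and 8.28 and 8.33 log2 with PBS, a difference of 0.07 ± 0.16 log2 (SE, n = 2 arrays per group). Both ISOX DUAL values were the higher ones, by less than the SE. Crebbp, which encodes CBP, measured 9.71 and 9.65 log2 against 9.72 and 9.53 log2, and its groups overlapped (0.06 ± 0.20 log2). Ep300, which encodes p300, also overlapped, with 9.48 and 9.41 log2 against 9.50 and 9.30 log2 (0.05 ± 0.35 log2). Its error also draws on wider spreads outside the comparison, such as untreated day 17 retina at 10.25 and 9.32 log2. Of 33 genes of bromodomain proteins tested, 30 had positive differences, but all lay between -0.09 and 0.10 log2 with a median of 0.04 log2. Among them, 6 lay higher on both ISOX DUAL arrays (18.2%, near the 16.6% of all genes) and 1 lay lower (3.03%, against 11.5%). The acetyltransferase gene Kat2b was 1 of the 6 (0.09 ± 0.09 log2). The difference of Baz2a, a chromatin remodelling factor, was 0.10 ± 0.10 log2.

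Among 17 genes often used as readouts of bromodomain inhibition, 0 had an unadjusted p under 0.05. Both ISOX DUAL arrays were higher for 5 (29.4%, against 16.6% of all genes) and lower for 1. On all 4 injected arrays, 6 of the 17 lay below the negative control median. E2f2, Irf4 and Cd274, which count among the 5 higher genes, were among these, so their order is one of background values. Hexim1, a brake on the elongation factor P-TEFb, measured 7.76 and 7.91 log2 with ISOX DUAL and 7.89 and 7.82 log2 with PBS (-0.02 ± 0.15 log2). Its 4 values interleave. Myc, a proto-oncogene, lay below the negative control median on all 4 arrays (5.54 and 5.60 log2 against 5.54 and 5.52 log2), so its level was not measurable here. The largest difference in this group of 17 genes was that of Ccnd2, a cyclin of the G1 phase, with 6.78 and 7.02 log2 against 6.64 and 6.65 log2 (0.25 ± 0.12 log2). Its groups did not overlap, and the difference was 0.13 log2 without the second ISOX DUAL array. In all, 13 of the 17 had positive differences with a median of 0.05 log2. For P-TEFb and other elongation factor genes, 12 of 19 were positive with a median of 0.04 log2. Both ISOX DUAL arrays were higher for 5 (26.3%, against 16.6% of all genes). Ccnt2, a cyclin of P-TEFb, differed by 0.11 ± 0.08 log2 and Aff4, a scaffold of the super elongation complex, by 0.09 ± 0.09 log2.

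The genes with the clearest higher values with ISOX DUAL than with PBS were those of glial reactivity. Of 27 tested genes in the list for reactive glia, which includes the crystallin gene Cryab, 25 had positive differences, and their median of 0.32 log2 compares with 0.01 log2 over all genes. Both ISOX DUAL arrays lay above both PBS arrays for 18 of the 27 (66.7%, against 16.6% of all genes), and below them for 1. At an unadjusted p under 0.05 there were 8 with higher and 0 with lower values (against 0.4% and 0.619% of all genes). The adjusted test was passed by 0. The mean over the list was 7.23 and 7.41 log2 on the ISOX DUAL arrays, and 6.98 and 6.96 log2 on the PBS arrays. It was 7.61 and 7.42 log2 in uninjected OIR and 6.63 and 6.60 log2 in untreated retina of day 17. The ISOX DUAL means thus did not exceed those of uninjected OIR.

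Serpina3n, a secreted protease inhibitor and a marker of reactive glia, measured 8.33 and 9.25 log2 with ISOX DUAL and 7.38 and 7.36 log2 with PBS. The PBS arrays were nearly equal and the ISOX DUAL arrays spread over almost 1 log2 above them. The difference was 1.42 ± 0.35 log2, or 2.67-fold, and uninjected OIR retina stood at 9.14 log2 against 6.10 log2 in untreated retina. Gfap, the intermediate filament of reactive astrocytes and Müller glia, measured 8.18 and 8.67 log2 against 7.72 and 8.05 log2, a difference of 0.54 ± 0.18 log2 or 1.45-fold. A2m, a broad protease trap of plasma and tissue, measured 7.11 and 7.64 log2 against 6.80 and 6.73 log2 (0.61 ± 0.17 log2, 1.52-fold). Uninjected OIR retina stood at 8.57 log2 for Gfap and 7.75 log2 for A2m. For these 3 genes the injected groups did not overlap. The second ISOX DUAL array, the one high in lens genes, held the highest value of the 4 injected arrays.

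The size of these differences moved with that array. Without it the difference of Serpina3n was 0.96 log2, that of A2m 0.34 log2 and that of Gfap 0.29 log2. With the mean of the alpha and beta crystallin genes as a covariate they were 0.88, 0.31 and 0.21 log2. Steap4, a metalloreductase, measured 5.62 and 6.18 log2 against 5.30 and 5.45 log2; only the second ISOX DUAL array lay above the negative control median, so no difference is given. Gfap was also 0.37 log2 without the first PBS array and 0.71 log2 without the second. The part of the lens signal in these differences was not tested. Over the list, the median stayed at 0.27 log2 without the second ISOX DUAL array and at 0.21 log2 with the crystallin covariate, and it ran from 0.21 to 0.38 log2 over all 22 alternative settings. Without that array the ISOX DUAL value lay above both PBS values for 19 of the 27 genes, against 32.9% of all genes.

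Among other genes with higher values, Pdpn, C4b and Edn2 differed by similar amounts with and without the array high in lens genes. Not every glial gene or list did so, as given below for Vit and for the microglia list. Pdpn, a membrane glycoprotein of glia and lymphatic vessels, measured 8.80 and 8.82 log2 with ISOX DUAL and 8.36 and 8.40 log2 with PBS. The arrays of each group were nearly equal, and the difference was 0.43 ± 0.14 log2 or 1.35-fold, and 0.41 log2 with the crystallin covariate. C4b, the fourth component of complement, measured 7.20 and 7.10 log2 against 6.86 and 6.43 log2 (0.50 ± 0.16 log2, 1.42-fold). It was as large without the second ISOX DUAL array (0.56 log2) and with the crystallin covariate (0.59 log2), but it was 0.29 log2 without the second PBS array. Edn2, the endothelin that stressed photoreceptors make, measured 7.27 and 7.35 log2 against 7.00 and 6.94 log2 (0.34 ± 0.11 log2, 1.27-fold). Uninjected OIR retina stood at 8.73 log2 for Pdpn, 6.69 log2 for C4b and 7.52 log2 for Edn2.

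Fgf2, a growth factor that protects photoreceptors, showed a wide spread between the PBS arrays. It measured 8.88 and 8.70 log2 with ISOX DUAL and 8.45 and 7.72 log2 with PBS, a difference of 0.71 ± 0.26 log2 or 1.63-fold. Its antisense partner Fgf2os followed the same order, with 7.30 and 6.86 log2 against 6.67 and 5.47 log2 (1.01 ± 0.34 log2, 2.02-fold). For Fgf2os the second PBS value lay below the negative control median of that array (5.99 log2), so its fold is set partly against background. The second PBS array was the lowest for both, and without it the differences were 0.34 and 0.41 log2. The strand of the probes is not given in the sources used here, so the signals of this overlapping pair may not be separate. Antxr2, a receptor for collagen VI and anthrax toxin, again was lowest on that array, with 8.67 and 8.56 log2 against 8.28 and 7.72 log2 (0.62 ± 0.22 log2, 0.34 log2 without it). Uninjected OIR retina stood at 8.80 log2 for Fgf2, 7.07 log2 for Fgf2os and 8.66 log2 for Antxr2.

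Among protease inhibitors of the serpin family, 3 of 12 tested genes had an unadjusted p under 0.05. All 3 had higher values (against 0.4% of all genes), while the median of the 12 was 0.01 log2. Serpine3, a member of little known function, measured 6.07 and 6.78 log2 with ISOX DUAL and 4.92 and 5.49 log2 with PBS, so the PBS level lay below the negative control probes on both arrays and no fold is given (1.22 ± 0.29 log2). It was near background in uninjected OIR (5.22 log2) and untreated retina (5.30 log2) too. Serping1, the inhibitor of complement C1, measured 7.02 and 7.30 log2 against 6.69 and 6.48 log2 (0.58 ± 0.24 log2).

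**Figure D2:**
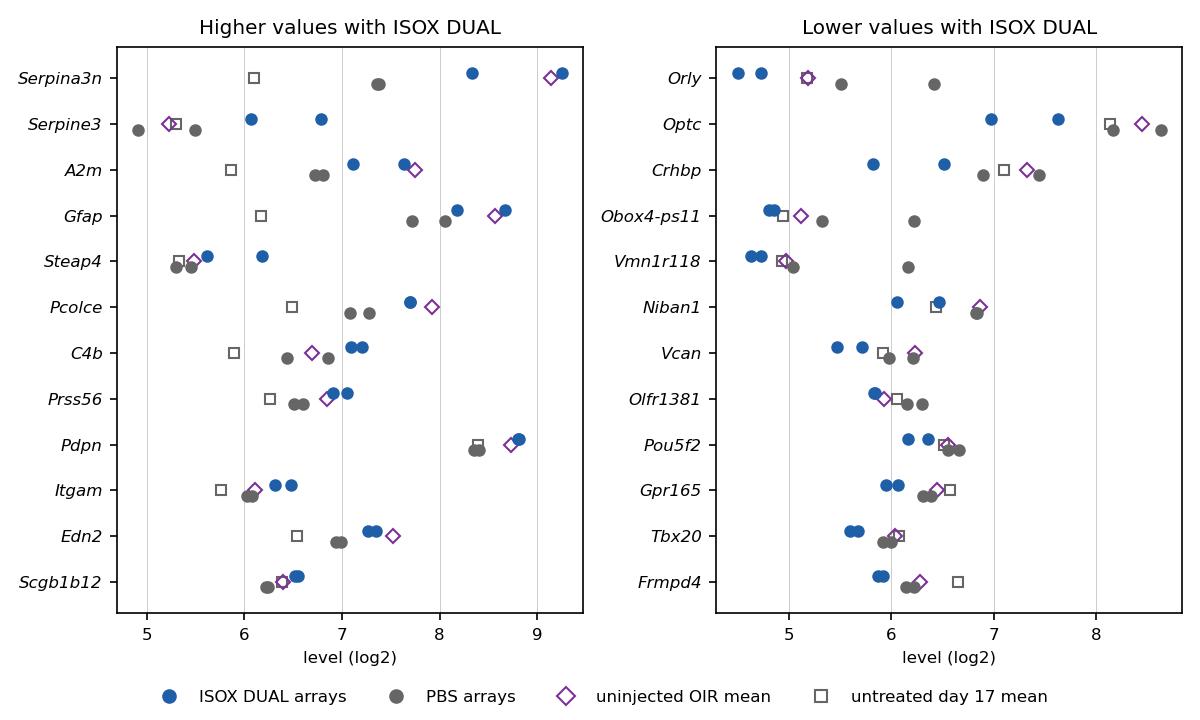
Levels (log2) of the 12 genes of smallest p with higher values (left) and the 12 with lower values (right) after ISOX DUAL, crystallins and unnamed genes left out; filled circles are single arrays, and open symbols are means of 2 arrays. For Serpina3n, A2m and Gfap the higher ISOX DUAL array lies near the uninjected OIR mean, whereas both arrays for Optc and Crhbp lie below the PBS arrays and below both reference means.

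Complement and microglia genes leaned the same way by smaller amounts. Of 16 complement genes tested, 13 had positive differences with a median of 0.12 log2, and both ISOX DUAL arrays were the higher ones for 11 (68.8%, against 16.6% of all genes). The 4 at an unadjusted p under 0.05 were Itgam, C4b, Cfi and Serping1, all with higher values (against 0.4% of all genes). Itgam, the alpha chain of complement receptor 3 on microglia and other myeloid cells, measured 6.32 and 6.48 log2 against 6.08 and 6.02 log2 (0.35 ± 0.11 log2, 1.27-fold). Cfi, the protease that cleaves complement C3b and C4b, lay below the negative control median on all 4 arrays, as did 9 of the 16 genes. The median of the list stayed between 0.07 and 0.18 log2 over the settings tried.

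Of 20 microglia and macrophage genes, 18 were positive with a median of 0.14 log2. Both ISOX DUAL arrays were higher for 9 (45%, against 16.6% of all genes), but 8 of the 20 lay below the negative controls on all 4 arrays. Csf1r, the receptor on which microglia depend, measured 6.99 and 6.96 log2 with ISOX DUAL and 6.70 and 6.74 log2 with PBS (0.26 ± 0.12 log2, 1.20-fold). Its groups did not overlap, and uninjected OIR retina stood at 6.60 log2. Without the second ISOX DUAL array the median of the list was 0.06 log2. Genes of neutrophils and lymphocytes gave no measurable level: all 12 tested, Mpo and Ltf among them, lay below the negative control median on all 4 arrays. Mpo (5.37 and 5.24 log2 against 5.11 and 5.27 log2) and Ltf (5.45 and 5.46 log2 against 5.32 and 5.43 log2) are therefore not given a difference.

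Cytokine and chemokine genes were mostly at background, with 13 of 18 below the negative controls, among them Cxcl2 and Cxcl1, and a median of 0.04 log2. Cxcl2, a neutrophil-attracting chemokine, measured 4.90 and 4.86 log2 against 4.65 and 4.58 log2. Among 22 interferon response genes 9 were positive, with a median of -0.01 log2. Rsad2 measured 5.09 and 6.14 log2 against 5.03 and 4.99 log2, so the difference of 0.61 ± 0.28 log2 came from the second ISOX DUAL array and was 0.08 log2 without it. Gbp2, a guanylate-binding protein, stayed below the negative control median on the 4 arrays.

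Further genes of smallest p with higher values were Pcolce, Prss56 and Scgb1b12. Pcolce, an enhancer of procollagen cleavage, measured 7.70 and 7.69 log2 with ISOX DUAL and 7.27 and 7.08 log2 with PBS (0.52 ± 0.13 log2, 1.43-fold). The ISOX DUAL arrays were almost equal, and the difference was 0.42 to 0.61 log2 whichever injected array was left out. Uninjected OIR retina stood at 7.92 log2 for Pcolce. Prss56, a serine protease of Müller glia linked to eye growth, measured 6.91 and 7.06 log2 against 6.50 and 6.60 log2 (0.43 ± 0.12 log2, 1.35-fold). Scgb1b12, a secretoglobin, was the smallest of the set, with 6.52 and 6.55 log2 against 6.22 and 6.25 log2 (0.30 ± 0.08 log2, 1.23-fold). For all 3 genes the groups were separated by more than the distance between replicates.

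Genes of the vitreous gel and the ciliary body, the tissue at the rim of the retina that makes parts of that gel, had the clearest lower values. All 16 tested genes of that list had negative differences, with a median of -0.16 log2, against 43% negative over all genes. Both ISOX DUAL arrays were the lower ones for 7 of them (43.8%, against 11.5% of all genes). An unadjusted p under 0.05 was reached by 5, against 0.619% with lower values over all genes. The mean over the list was 6.43 and 6.52 log2 with ISOX DUAL and 6.63 and 6.80 log2 with PBS, so the groups did not overlap. The median ran from -0.27 to -0.11 log2 over the settings tried.

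Optc encodes opticin, a small leucine-rich proteoglycan that coats the collagen fibrils of the vitreous. It measured 6.98 and 7.63 log2 with ISOX DUAL and 8.17 and 8.63 log2 with PBS, and both ISOX DUAL values also lay below the means of uninjected OIR (8.45 log2) and untreated retina (8.14 log2). The difference was -1.10 ± 0.26 log2, or 2.14-fold, with a 95% interval from -1.71 to -0.48 log2, and its adjusted p in limma's test was 1. The second ISOX DUAL array was the higher of the pair; without it the difference was -1.42 log2, and with the crystallin covariate it was -1.51 log2.

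The other members with an unadjusted p under 0.05 showed the same order of the arrays. Vcan, the large matrix proteoglycan versican, measured 5.47 and 5.72 log2 with ISOX DUAL and 5.98 and 6.22 log2 with PBS (-0.50 ± 0.16 log2). Because its ISOX DUAL values lie below the negative control median, no fold is given. Zic1 and Zic2 encode zinc finger transcription factors of the ciliary margin. Zic1 measured 6.63 and 6.82 log2 against 7.08 and 7.30 log2 (-0.46 ± 0.18 log2), and Zic2 measured 6.07 and 6.08 log2 against 6.35 and 6.47 log2 (-0.33 ± 0.14 log2). Fbn2, a microfibril protein, measured 6.22 and 6.52 log2 against 6.59 and 6.85 log2 (-0.35 ± 0.14 log2). In all 4 genes the lower PBS array still exceeded the higher ISOX DUAL array.

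Not every vitreous collagen gene took part to a visible degree. Col9a1, a chain of the minor vitreous collagen IX, measured 7.82 and 7.99 log2 with ISOX DUAL and 8.02 and 8.34 log2 with PBS (-0.28 ± 0.22 log2). Col2a1, the main fibril collagen of the vitreous, measured 7.80 and 7.66 log2 against 7.83 and 7.78 log2 (-0.07 ± 0.21 log2), within its spread. For pigment epithelium, another tissue next to the retina, the median of 16 genes was -0.06 log2, with Pmel, a melanosome protein, at -0.18 ± 0.12 log2 and Mlana below the negative controls. That median changed sign with the array left out, from 0.06 log2 without the first ISOX DUAL array to -0.17 log2 without the second.

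Crhbp, the binding protein of corticotropin-releasing hormone, was another gene with lower values. It measured 5.82 and 6.52 log2 with ISOX DUAL and 6.90 and 7.44 log2 with PBS, a difference of -0.997 ± 0.31 log2 or 2.00-fold. The reference levels were 7.32 log2 in uninjected OIR and 7.10 log2 in untreated retina, so the PBS arrays lay on either side of these means and the ISOX DUAL arrays below both. The difference ran from -1.45 to -0.65 log2 over the settings tried. Niban1, a stress-response regulator of translation, measured 6.06 and 6.47 log2 against 6.84 and 6.83 log2 (-0.57 ± 0.14 log2, 1.49-fold). The PBS arrays were nearly equal, and the first ISOX DUAL array was the lowest; without it the difference was -0.36 log2.

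The other genes of smallest p with lower values were small or near background. Pou5f2, a germ cell transcription factor, measured 6.16 and 6.36 log2 with ISOX DUAL and 6.66 and 6.56 log2 with PBS (-0.35 log2, 1.27-fold). Frmpd4 (-0.29 log2), a scaffold protein of synapses, Tbx20 (-0.32 log2), a T-box transcription factor, Gpr165 (-0.34 log2), an orphan receptor, and Olfr1381 (-0.39 log2), an odorant receptor, had ISOX DUAL values below the negative control median. The pseudogene Obox4-ps11 (-0.94 log2) and the pheromone receptor gene Vmn1r118 (-0.92 log2) were high on the first PBS array alone, at 6.23 and 6.17 log2, and below the negative control median on the other 3 injected arrays.

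Y-chromosome clusters filled most of the bottom of the range. Of the 14 genes other than crystallins that were lower by at least 1 log2, 11 lie on the Y chromosome, 10 with predicted names such as Gm21118 and Gm20810, and Orly, a long noncoding RNA. Their median was 4.46 and 4.65 log2 on the ISOX DUAL arrays and 6.93 and 5.66 log2 on the PBS arrays, against 4.75 to 5.39 log2 on the 4 reference arrays of day 17. The first PBS array stood above all the others, and it alone had a median above that of its negative control probes. On the untreated day 7 arrays the median of these clusters was 4.36 and 4.44 log2, near the ISOX DUAL level. Those day 7 arrays had high Xist, and the Y genes Uty and Kdm5d lay below their negative control medians. Their median is thus a level without measured Y-chromosome signal, and not one to be read as an effect of age. Genes of this kind exist in many near-identical copies, so which copy gives the signal is uncertain.

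Single-copy Y genes did not share that pattern. Uty, a histone demethylase gene, measured 8.57 and 8.66 log2 with ISOX DUAL and 8.73 and 8.57 log2 with PBS. Kdm5d, another demethylase gene, measured 7.93 and 7.85 log2 against 7.98 and 7.78 log2, and its groups overlapped as well. The X-chromosome gene Xist lay between 4.39 and 4.58 log2 on the 4 injected arrays. On the untreated day 7 arrays Xist stood at 11.83 and 11.62 log2 and Uty at 4.03 and 4.18 log2. Orly measured 4.50 and 4.73 log2 against 6.41 and 5.52 log2 (-1.35 ± 0.37 log2), and its difference was -0.90 log2 without the first PBS array. Of the 4 injected arrays, that array alone lay above the negative control median for Orly, so the difference is set against background. The other three genes in the 14 were Optc, the microRNA gene Mir101c and the small nucleolar RNA gene Snord23, the latter pair also highest of the 4 on the first PBS array.

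The question behind the study concerns genes raised in OIR. Uninjected OIR retina had 106 genes with higher values than untreated day 17 retina at an adjusted p under 0.05 (0.456% of all genes) and 9 with lower values (0.0387%). The means of that contrast share no array with the injected groups, but both contrasts use the same error for each gene. The calls thus favoured genes of small error in both, and counts by p among the 106 are not independent of them. These calls rested on single arrays: without the first or the second untreated array 3 and 0 genes passed in place of 115, and without the first or the second uninjected OIR array 6 and 35. Of the 106, 75 had higher values with ISOX DUAL than with PBS and 31 lower, with a median difference of 0.10 log2. Both ISOX DUAL arrays were the higher ones for 42 of them (39.6%, against 16.6% of all genes) and the lower ones for 5 (4.72%, against 11.5%). At an unadjusted p under 0.05, 15 were higher and 1 was lower (against 0.4% and 0.619% of all genes). In either direction 0 passed the adjusted test.

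For 31 of the 106 genes the ISOX DUAL mean lay between the untreated and the PBS means, and for 0 did it reach the untreated mean or go below it. The share of the higher genes depended on single arrays. With the first PBS array left out, 81 of the 106 (76.4%, against 31.3% of all genes) were above the remaining PBS array on both ISOX DUAL arrays and 6 (5.66%, against 36.2%) were below it. With the second PBS array left out, 46 were above (43.4%, against 47.9% of all genes) and 35 were below (33%, against 25.8%). Without that array the share of higher values was thus under that of all genes, and the share of lower values over it. Of 11 reactive glia genes in the set, 10 were higher with ISOX DUAL, and of 8 endothelial tip cell genes, 6 were lower.

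The 5 highest differences among the 106 were those of Serpina3n, Fgf2os, Fgf2, Antxr2 and A2m, described above. Cd44, a hyaluronan receptor of reactive glia, measured 6.84 and 6.92 log2 against 6.58 and 6.52 log2 (0.33 ± 0.14 log2). Egln3, a prolyl hydroxylase that marks hypoxia-inducible factor for decay, measured 7.16 and 7.13 log2 against 7.02 and 6.66 log2 (0.30 ± 0.23 log2, and 0.13 log2 without the second PBS array). Hmox1, the heme-degrading stress enzyme, overlapped, with 6.88 and 7.56 log2 against 6.86 and 7.19 log2 (0.20 ± 0.26 log2). Its difference was -0.14 log2 without the second ISOX DUAL array.

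The 5 genes with both ISOX DUAL arrays lower were Angpt2, Esm1, Nid2, Adamts9 and Rhoj. Angpt2, the angiopoietin that loosens vessel walls before sprouting, measured 6.54 and 6.39 log2 with ISOX DUAL and 6.88 and 6.60 log2 with PBS (-0.27 ± 0.13 log2, 1.21-fold). Uninjected OIR stood at 8.14 log2 and untreated retina at 6.28 log2, so both injected groups lay nearer the untreated than the OIR level. The difference of Angpt2 was -0.13 log2 without the first PBS array and -0.41 log2 without the second. Esm1, a proteoglycan secreted by tip cells, measured 5.34 and 5.30 log2 against 5.75 and 5.52 log2, all below the negative control medians, as were those of Adamts9, a matrix protease (-0.17 ± 0.08 log2). Nid2, a basement membrane protein, measured 6.49 and 6.40 log2 against 6.69 and 6.62 log2 (-0.21 ± 0.08 log2), and Rhoj, a small GTPase of endothelium, differed by -0.13 ± 0.13 log2.

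Apln and Adgrf5 complete the 5 lowest differences of the set. Apln, the peptide apelin of sprouting endothelium, measured 6.41 and 6.18 log2 with ISOX DUAL and 6.72 and 6.31 log2 with PBS (-0.22 ± 0.19 log2). Adgrf5, an adhesion receptor of endothelium, measured 7.36 and 7.14 log2 against 7.76 and 7.34 log2 (-0.30 ± 0.16 log2). Both genes overlapped by the first ISOX DUAL array, which exceeded the second PBS array. Without the first PBS array the differences were -0.02 log2 for Apln and -0.09 log2 for Adgrf5, and without the second -0.42 and -0.51 log2. Ccn1, a matrix protein induced in sprouting vessels (-0.04 log2), and Fn1, fibronectin (0.08 log2), showed no difference beyond their spread.

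**Figure D3:**
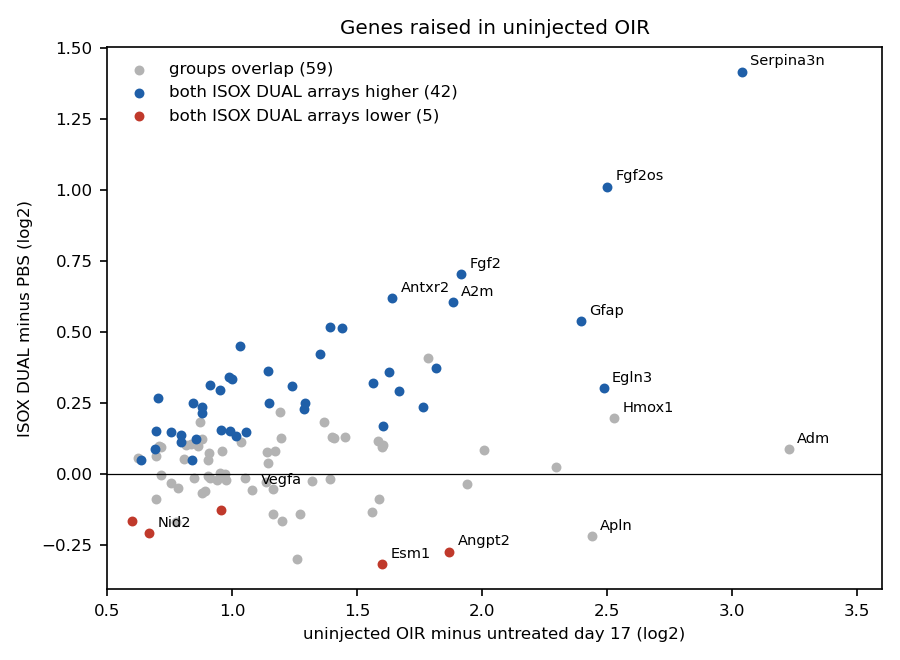
The 106 genes raised in OIR: the difference between ISOX DUAL and PBS (log2) against the rise in uninjected OIR over untreated day 17 retina (log2), with 1 point per gene. Both ISOX DUAL arrays were higher for 42 genes (blue) and lower for 5 (red), and the other 59 overlap (grey); Serpina3n lies far up, and Angpt2 and Esm1 lie below 0.

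Of the 9 genes with lower values in OIR, 8 had negative differences (against 43% negative over all genes), with a median of -0.11 log2. The injected groups were separate, with ISOX DUAL lower, for 4 of the 9 (44.4%, against 11.5% of all genes). On all 4 injected arrays, 3 of the 9 lay below the negative control median. The list mean was 6.43 and 6.38 log2 on the ISOX DUAL arrays, and 6.49 and 6.55 log2 on the PBS arrays. Uninjected OIR lay below both groups, at 6.19 and 6.04 log2. Among 24 endothelial tip cell genes, 5 were positive and the median was -0.08 log2; 8 were lower on both ISOX DUAL arrays (33.3%, against 11.5%) and 1 higher. Cxcr4, a chemokine receptor of tip cells, differed by -0.44 ± 0.27 log2, with 5.90 and 6.25 log2 against 6.47 and 6.57 log2. The median was -0.02 log2 without the second ISOX DUAL array, and also with the crystallin covariate.

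The broader endothelial list gave 5 positive of 23 with a median of -0.05 log2. Cldn5, the tight junction protein of the blood-retina barrier, measured 7.21 and 7.38 log2 against 7.48 and 7.56 log2 (-0.23 ± 0.17 log2, 1.17-fold, and -0.14 log2 without the first ISOX DUAL array). Kdr, the main receptor for vascular endothelial growth factor, had the opposite sign, with 10.14 and 10.21 log2 against 9.93 and 10.05 log2 (0.18 ± 0.13 log2, 1.13-fold); neural cells of the retina also express it. In pericytes and smooth muscle cells 5 of 17 genes were positive with a median of -0.04 log2. Abcc9, a potassium channel regulator of pericytes, differed by -0.18 ± 0.12 log2, and Foxs1, a forkhead factor of mural cells, lay below the negative controls with 5.53 and 5.55 log2 against 5.87 and 5.90 log2.

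Of 30 hypoxia targets, 20 had positive differences, the median was 0.05 log2 and 0 had an unadjusted p under 0.05. Vegfa, the growth factor that drives sprouting, measured 9.76 and 9.60 log2 with ISOX DUAL and 9.84 and 9.64 log2 with PBS (-0.06 ± 0.12 log2). Its 4 values interleave, as do those of Adm, the vasodilator adrenomedullin, with 7.55 and 7.35 log2 against 7.51 and 7.21 log2 (0.09 ± 0.18 log2). Egln1, the main oxygen-sensing prolyl hydroxylase, measured 9.33 and 9.19 log2 against 9.10 and 9.11 log2 (0.16 ± 0.10 log2, 1.11-fold), and Lox, a collagen crosslinking enzyme, lay below the negative controls. Leaving out 1 array turned the median of the list from 0.12 log2, without the second ISOX DUAL array, to -0.01 log2, without the first or without the second PBS array.

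Glycolysis genes were positive for 13 of 18 with a median of 0.04 log2. Pfkm, the muscle isoform of phosphofructokinase, differed by -0.15 ± 0.17 log2 and Eno2, the neuronal enolase, by -0.12 ± 0.20 log2. Among 27 angiogenic ligands 12 were positive with a median of -0.02 log2, and the 2 with an unadjusted p under 0.05 were Edn2 and Fgf2. Angiogenic receptors gave 10 positive of 21 and a median of 0.00 log2; Igf1r, the receptor of insulin-like growth factor 1, differed by 0.14 ± 0.12 log2. In the Notch pathway, which limits sprouting, 6 of 17 were positive with a median of -0.02 log2, and its targets Hey1 (-0.10 ± 0.10 log2) and Hes1 (-0.18 ± 0.19 log2) overlapped between groups.

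Ganglion cell genes, which mark the output neurons of the retina, were negative throughout, by amounts that moved with single arrays. All 21 tested had negative differences with a median of -0.20 log2, yet the groups overlapped for every one. The list mean was 7.45 and 7.13 log2 with ISOX DUAL and 7.27 and 7.81 log2 with PBS, the second PBS array being the highest. Chrna6, a nicotinic receptor subunit, measured 8.13 and 7.66 log2 against 8.09 and 8.62 log2 (-0.46 ± 0.22 log2), and Rbpms, an RNA-binding protein used to count these cells, measured 6.72 and 6.13 log2 against 6.62 and 7.06 log2 (-0.42 ± 0.23 log2). Without the second PBS array the median was 0.02 log2, and without the first it was -0.55 log2. Without the second ISOX DUAL array, the lowest of the 4, it was -0.07 log2, and without the first it was -0.31 log2.

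The other neurons of the retina differed less. Rod genes were positive for 17 of 23 with a median of 0.06 log2; Nrl, the factor that sets rod fate, measured 9.21 and 9.23 log2 against 9.34 and 9.36 log2 (-0.13 ± 0.15 log2), and Guca1b, an activator of guanylate cyclase, differed by -0.10 ± 0.18 log2. Of 14 cone genes 9 were positive with a median of 0.04 log2, and Gnb3, a cone transducin subunit, measured 10.25 and 10.38 log2 against 10.09 and 10.04 log2 (0.25 ± 0.14 log2, 1.19-fold). Gngt2, another transducin subunit of cones, differed by 0.17 ± 0.10 log2. Horizontal cell genes, only 7 in number, had a median of 0.09 log2, with 5 higher on both ISOX DUAL arrays (71.4%, against 16.6% of all genes). Among these, Onecut2, a transcription factor, measured 6.58 and 6.47 log2 against 6.29 and 6.17 log2 (0.30 ± 0.24 log2), and the difference of Lhx1, a factor that places these cells, was 0.14 ± 0.09 log2.

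Bipolar cell genes had a median of 0.00 log2 (11 of 19 positive), with Otx2, a homeobox factor, at 0.10 ± 0.11 log2 and Lrtm1, a leucine-rich repeat protein, at 0.08 ± 0.14 log2. Amacrine cell genes had a median of 0.02 log2 (11 of 19 positive), with the transcription factor Tfap2b at 0.10 ± 0.11 log2 and the calcium buffer Calb2 at -0.29 ± 0.34 log2. Homeostatic Müller glia genes were positive for 12 of 19 with a median of 0.05 log2. Vit, the vitrin gene, was the exception in size, with 6.81 and 7.38 log2 against 6.68 and 6.67 log2 (0.42 ± 0.22 log2), and its difference was 0.14 log2 without the second ISOX DUAL array. Rdh10, a retinol dehydrogenase, differed by 0.17 ± 0.11 log2.

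The remaining lists had medians within 0.06 log2 of 0. Genes of photoreceptor and neuron stress had a median of 0.06 log2 (17 of 21 positive), and 7 were higher on both ISOX DUAL arrays (33.3%, against 16.6% of all genes). The highest difference among them was that of Mt2, a metallothionein, with a wide error (0.58 ± 0.64 log2), and Atf3, an injury-induced transcription factor, differed by 0.24 ± 0.13 log2. Immediate-early genes had 0.04 log2 (15 of 21 positive), with Egr4 at 0.18 ± 0.15 log2, and cell cycle genes 0.00 log2 (11 of 24 positive), with Tyms, thymidylate synthase, at -0.11 ± 0.10 log2 and Ube2c at -0.12 ± 0.13 log2. Extracellular matrix genes had -0.02 log2 (12 of 27 positive), and of these Pcolce had higher and Nid2, Fbn2 and Dse, an enzyme of dermatan sulfate synthesis, had lower values at an unadjusted p under 0.05. Red blood cell genes had 0.00 log2 over 3 genes, with Alas2 at -0.04 ± 0.18 log2 and Slc4a1 below the negative controls. Cornea and conjunctiva genes had 0.03 log2 over 9, and 7 of them, Sprr1a and Krt13 included, lay below the negative controls.

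**Figure D4:**
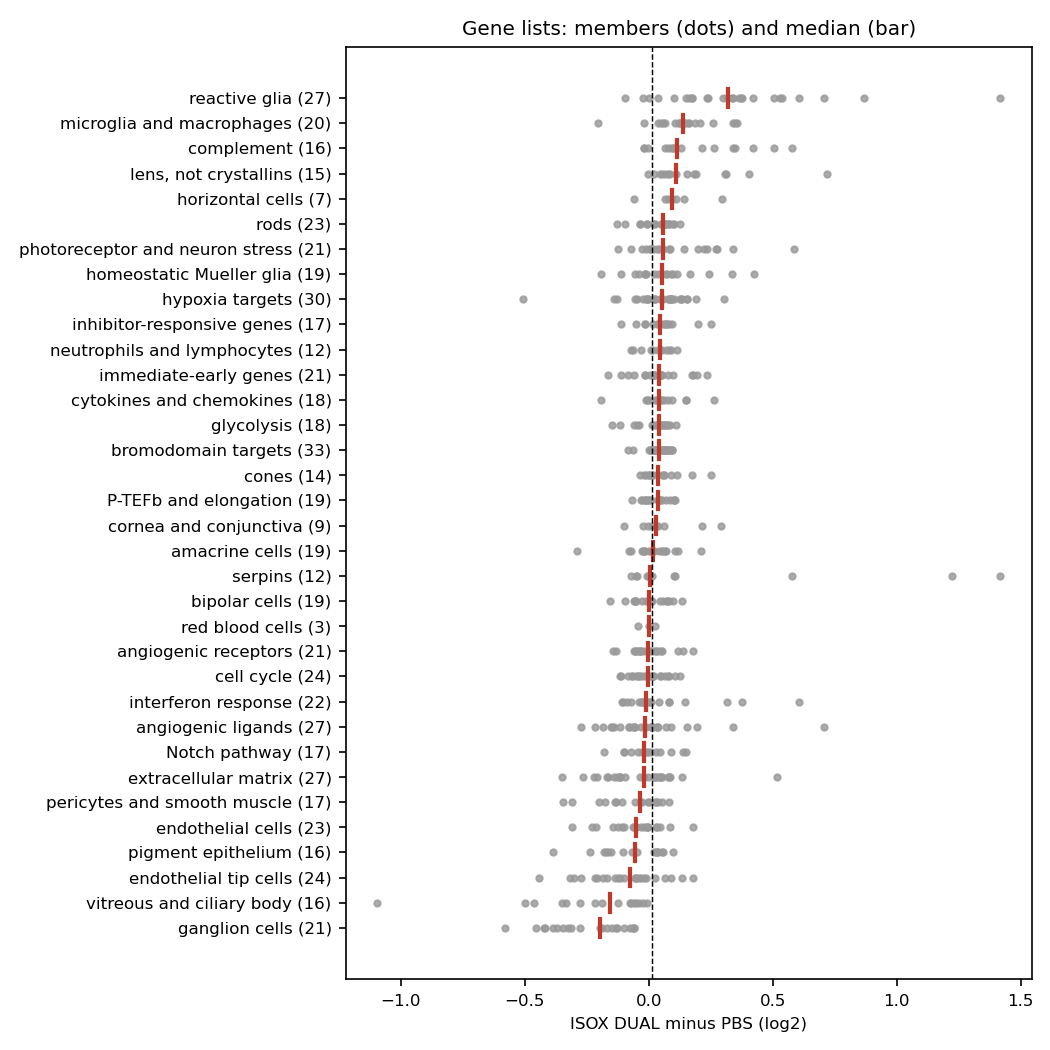
Differences between ISOX DUAL and PBS (log2) of the tested members of 34 gene lists (grey dots, number of members in brackets) with the median of each list (red bar); the dashed line is the median of all 23255 genes, 0.01 log2. Reactive glia lie at the top with a median of 0.32 log2, and vitreous and ciliary body and ganglion cell genes lie at the bottom with -0.16 and -0.20 log2.

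The crystallin genes, kept apart because the 2 ISOX DUAL arrays are unlike each other in lens signal, were higher with ISOX DUAL throughout and by far the most uneven. Crystallins pack the lens fibre cells; some, Cryab above all, are also made by stressed retina. All 16 had positive differences (against 57% of all genes), with a median of 0.94 log2. For 10, both ISOX DUAL arrays lay above both PBS arrays (62.5%, against 16.6% of all genes). An unadjusted p under 0.05 was reached by 10, against 0.4% with higher values over all genes. No crystallin passed the adjusted test. The mean of the 8 alpha and beta crystallin genes was 6.78 and 8.70 log2 on the ISOX DUAL arrays, 6.38 and 6.78 log2 on the PBS arrays and 6.21 to 6.45 log2 on the 4 reference arrays of day 17. The first ISOX DUAL array was thus level with the second PBS array, and the second ISOX DUAL array stood alone.

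Cryaa, the alpha A chain, measured 8.05 and 11.75 log2 with ISOX DUAL and 7.30 and 8.34 log2 with PBS, so the groups overlapped in spite of a difference of 2.08 ± 1.00 log2, which was 0.23 log2 without the second ISOX DUAL array. Cryba1, a beta crystallin, measured 6.98 and 10.58 log2 against 6.22 and 6.76 log2 (2.29 ± 0.96 log2, 4.88-fold). Its groups were separate, by the narrow gap between the first ISOX DUAL array and the second PBS array. Crybb1 measured 7.53 and 9.65 log2 against 7.04 and 7.26 log2 (1.44 ± 0.55 log2, 2.70-fold). With the first ISOX DUAL array left out its difference was 2.50 log2 and its adjusted p in limma's test 0.0387, which made it the 1 crystallin past the threshold in any setting. Cryab, the stress-induced small heat shock protein, overlapped, with 7.46 and 7.89 log2 against 7.27 and 7.61 log2 (0.24 ± 0.27 log2).

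The remaining alpha and beta members were highest on the second ISOX DUAL array, with the first near the PBS arrays. Crybb2 differed by 0.66 log2 and Crybb3 by 0.63 log2, and by 0.08 and 0.10 log2 without the second ISOX DUAL array. Cryba2 (1.04 log2) and Cryba4 (0.88 log2) lay above the negative control median on the second ISOX DUAL array alone, so these differences are set against background and no fold is given. Lens genes other than crystallins leaned the same way with less contrast, 14 of 15 being positive with a median of 0.11 log2. Mip measured 6.36 and 7.59 log2 against 6.15 and 6.37 log2 (0.72 ± 0.33 log2, 0.10 log2 without the second ISOX DUAL array). Grifin, a lens galectin, was less uneven, with 7.19 and 7.47 log2 against 6.97 and 7.07 log2 (0.31 ± 0.14 log2, 1.24-fold, and 0.17 log2 without that array). Whether lens material came into a retina sample was not tested.

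The gamma crystallins, the densest-packing lens proteins, are of interest because several were separate on both ISOX DUAL arrays. Of 8 tested, 7 had both ISOX DUAL arrays above both PBS arrays and an unadjusted p under 0.05, against 3 of 8 alpha and beta crystallins. For 6 of them the promoter table from RefSeq (GRCm38.p6) holds the bases before the transcription start, and these are shown because all 6 genes lay higher together on both ISOX DUAL arrays. All 6 lie on chromosome 1, at chr1:65103364-65103443 (Cryga), chr1:65082291-65082370 (Crygb), chr1:65073533-65073612 (Crygc), chr1:65063441-65063520 (Crygd) and chr1:65051164-65051243 (Cryge) on the minus strand, and at chr1:65926442-65926521 (Crygf) on the plus strand. Capitals mark the motifs TATATA, where a TATA box may lie, and TTTGTG, both chosen after the sequences were seen.
Cryga: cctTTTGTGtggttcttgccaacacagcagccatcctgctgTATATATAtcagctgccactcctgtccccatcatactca
Crygb: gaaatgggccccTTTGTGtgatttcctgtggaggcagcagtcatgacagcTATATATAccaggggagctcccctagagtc
Crygc: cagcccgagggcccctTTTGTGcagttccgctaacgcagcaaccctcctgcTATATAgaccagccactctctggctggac
Crygd: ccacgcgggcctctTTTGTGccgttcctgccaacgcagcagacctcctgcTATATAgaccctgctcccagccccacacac
Cryge: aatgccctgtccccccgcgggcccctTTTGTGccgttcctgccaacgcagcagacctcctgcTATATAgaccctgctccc
Crygf: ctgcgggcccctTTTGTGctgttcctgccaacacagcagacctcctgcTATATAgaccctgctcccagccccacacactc

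All 6 windows of 80 bases hold both motifs on the strand of the gene. Among 32851 RefSeq promoter windows of that length, 1.88% hold TATATA (a palindrome, so the same on either strand), 2.29% hold TTTGTG on the gene's strand and 4.60% on either strand, and 0.0731% hold both on the gene's strand. Over 50 bases lined up on TATATA, Crygd and Cryge were 98% identical, Cryge and Crygf 96%, and Crygd and Crygf 94%. Cryga and Crygb shared 36% to 48% with the other genes and with each other. A match is a description of letters only.

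The 3 genes with the most alike promoter windows had unlike patterns over the arrays. Cryge measured 6.64 and 6.80 log2 with ISOX DUAL and 6.22 and 6.20 log2 with PBS (0.51 ± 0.14 log2, 1.43-fold), so its ISOX DUAL arrays were nearly level. Crygf measured 7.03 and 8.16 log2 against 6.57 and 6.58 log2, and its second ISOX DUAL array exceeded the first by more than 1 log2. Crygd was in between, with 6.53 and 7.16 log2 against 6.29 and 6.14 log2 (0.63 log2). Array probes read transcripts, which were not compared here; where gamma crystallin transcripts are near copies of each other, the values of single genes are uncertain.

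The other gamma crystallin genes differed as widely. Cryga measured 7.29 and 7.93 log2 against 6.63 and 6.87 log2 (0.86 ± 0.24 log2, 1.82-fold). Crygb measured 7.22 and 8.69 log2 against 6.50 and 6.51 log2 (1.46 ± 0.45 log2, 2.75-fold), and reference arrays of day 17 lay lower still. Crygc (0.99 log2) and Crygn (0.33 log2) had both PBS arrays below the negative control median, and Crygn the first ISOX DUAL array too, so these differences are set against background and no fold is given. Crygs, a member expressed later in lens growth than most, measured 5.32 and 8.45 log2 against 4.56 and 5.05 log2, so the first ISOX DUAL array and both PBS arrays were below the negative control probes. Without the second ISOX DUAL array the median over all 16 crystallins was 0.33 log2, and without the first it was 1.59 log2.

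**Figure D5:**
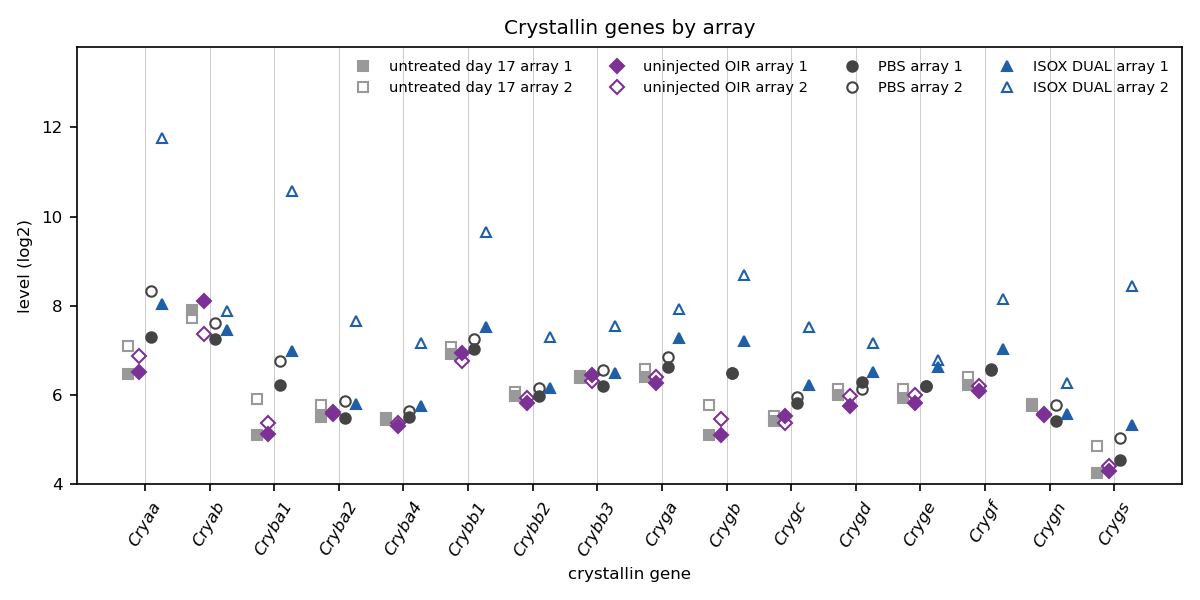
Levels (log2) of the 16 crystallin genes on each array of 4 day 17 groups; filled and open symbols are the first and second array of a group. The second ISOX DUAL array (open triangles) is the highest of the 8 for 15 of the 16 genes, all but Cryab, whereas the first (filled triangles) lies near the PBS arrays for most.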

How the data were processed

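Total RNA of retinas, isolated by Trizol, was labelled with biotin after enzymatic fragmentation and measured on Affymetrix arrays, per the labels' protocols. The deposited values are taken to be log2 levels, 1 for each cluster on each array, because they run from 0.782 to 13.7. How the authors corrected background and normalized them, and with which software, is not given in the sources used here; they were used without further normalization.

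Of 65956 transcript clusters, 30604 carry 1 gene symbol in the platform annotation; symbols were updated through RefSeq genes of GRCm38.p6. A gene was represented by its cluster of highest mean (30063 genes), and entered the test when its level exceeded the 30th percentile of the array on 2 or more of them (23255 genes). Low values that pass this filter can still be background: 7371 tested genes lay below the negative control median on all 4 injected arrays. Clusters with no symbol, or more than 1, were not analysed here.

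Differences were fitted with limma 3.58.1 (lmFit and eBayes) in R 4.3.3 over all 10 arrays of 5 groups, which share 1 estimate of the spread (5 residual and 2.76 prior degrees of freedom). Adjusted p-values are Benjamini-Hochberg values across all 23255 genes, and 0.05 was the threshold; ± is the standard error of this fit, and each group has n = 2 arrays. A simulation of this comparison placed changes of known size in 200 of 23255 genes. Of 1.5-fold changes 0% were recovered, of 2-fold changes 79% and of 4-fold changes 96.5%. False calls numbered 0, 10 and 8 in that order. A count of 0 genes past the threshold thus does not exclude changes near 1.5-fold. The number of arrays and the shared estimate of the spread limit the precision.

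Named genes were the 12 of smallest p in each direction whose groups do not overlap (crystallins, unnamed, microRNA and small nucleolar RNA genes and genes at background left out), the 2 of smallest p from each of 36 gene lists, a fixed set of inhibitor targets and OIR genes, the 5 highest and 5 lowest differences among genes raised in OIR, and all crystallins. Other genes were named after their values were seen. The members and lists were chosen with earlier results of these data known, so lists were described by counts and medians without a test. Alternatives covered the arrays in the fit, the spread model, array weights, normalization, filters, gene summary, lens signal, the replicate block and leaving out each array.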

Additional observations from a re-analysis of the deposited data

How the results depend on the processing

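Under all 22 alternative settings, 0 genes other than crystallins passed the adjusted threshold in limma's test, as in the reported fit (227 at an unadjusted p under 0.05). That unadjusted count was 705 with only the 4 arrays compared, 867 with array weights, 595 with no filter on low values, 10 with a filter at the 95th percentile of the negative controls, 782 over all clusters, named or not, and 138 with the crystallin covariate. It ran from 111 (without the first ISOX DUAL array) to 471 (without the second PBS array). Fewer genes are tested under the stricter filter and more over all clusters; the other causes were not tested. With the replicate number as a block the unadjusted count was 290, and 0 genes passed the adjusted threshold. The replicate numbers are not shown to pair the arrays: with 2 arrays a group, the differences between first and second arrays of both injected groups correlated at 0.399 across genes; whether a number marks a shared day or batch was not tested, and the block changed no call of this contrast. Crystallin genes past the threshold ran from 0 to 1 when single arrays were left out, and their median from 0.33 to 1.59 log2, with 0.94 log2 in the reported fit.

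The 115 genes past the threshold between uninjected OIR and untreated retina became 12 with array weights, 8 with the stricter filter, 59 over all clusters and 26 with the crystallin covariate, and 0 to 84 with single arrays left out (leaving out an ISOX DUAL array gave 23, a PBS array 54 and a day 7 array 84, through the estimate of the spread alone). With the replicate block it was 134.

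Of 108 named genes, 92 kept the sign of their difference under every setting tried and 16 did not, all with small or uneven differences. With the crystallin covariate, Ccn1 was at 0.16, Hmox1 at -0.25, Mip at -0.017 and Vegfa at 0.072 log2. With single arrays left out, the ranges in log2 were -0.064 to 0.24 for Adm, -0.14 to 0.055 for Alas2, -0.02 to 0.21 for Baz2a, -0.70 to 0.12 for Calb2, -0.23 to 0.16 for Ccn1, -0.041 to 0.15 for Crebbp and -0.014 to 0.68 for Crygn. They were -0.052 to 0.15 for Ep300, -0.15 to 0.32 for Fn1, -0.37 to 0.004 for Hes1, -0.091 to 0.057 for Hexim1, -0.14 to 0.53 for Hmox1, -0.016 to 0.29 for Igf1r, -0.008 to 0.058 for Slc4a1 and -0.16 to 0.043 for Vegfa. The causes of these turns were not tested. Of 731 list medians under the alternatives, 29 moved beyond the spread between arrays.

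With only 2 arrays a group, differences under about 0.31 log2 are within the usual interval, and 7371 tested genes are at background on all 4 injected arrays.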
